A study of Homo sapiens with 4 samples.

Results

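NOTCH1, HEY1, DLL3, DTX1 and DTX4 are genes of the Notch signalling pathway, and their RNA was followed in a human neuroblastoma line depleted of the chromatin factor SSRP1. They are 5 of the 14812 genes named on the array, each read by 1 probe set. They were picked because their log2 change between SSRP1 siRNA and control siRNA was already known, so their changes are given as a description and no p is drawn on for them. NOTCH1 (2.51-fold), HEY1 (1.83-fold) and DTX4 (1.48-fold) were higher with SSRP1 siRNA, while DLL3 (60.9% of the control level) and DTX1 (76.8%) were lower.

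Notch signalling passes between touching cells. A ligand on one cell binds a receptor on its neighbour, the receptor is cut by an ADAM protease and by gamma-secretase, and the freed intracellular domain enters the nucleus. There it joins the DNA-binding protein RBPJ and a Mastermind co-activator to switch on genes of the HES and HEY repressors. In the developing nervous system these repressors hold back proneural factors, and neuroblastoma arises from the sympathetic branch of the neural crest.

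The line was BE(2)C, an established culture of human neuroblastoma grown in DMEM with serum. One group received siRNA against SSRP1, a subunit of the histone chaperone FACT, and the other a non-targeting control siRNA, in both cases with a Lipofectamine reagent. Each group held 2 samples, RNA was taken 72 hours after transfection, and 100 ng of it was hybridised to 1 Affymetrix Human Gene 2.0 ST array per sample. The labels give 1 product number for the SSRP1 siRNA, so effects of that reagent beyond SSRP1 cannot be told apart from loss of SSRP1. They do not say whether replicates were separate cultures, so the spread between replicates may be technical.

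SSRP1 itself had log2 signals of 7.42 and 6.97 on the SSRP1 siRNA arrays, against 9.05 and 9.23 on the control arrays. This left 26.0% of the control level (95% interval 19.3 to 34.8%, limma adjusted p = 0.0479). That p was 0.0512 with robust variances, 0.0569 with the replicate numbers as a block, 0.144 over all probe sets and 0.241 to 0.599 without any 1 array, while both SSRP1 siRNA arrays lay below both control arrays. Medians over all probe sets lay between 3.37 and 3.42 on the 4 arrays, and correlations between arrays between 0.990 and 0.993. The sympathetic neuroblast markers of the cell line were present: 8 of 9 listed markers were measured, with mean signals from 6.52 (TH) to 10.7 (STMN2). Markers of endothelium, fibroblasts and glia are given beside the genes they touch. Of 4 listed blood markers 1 was measured. This was CD14, with signals of 3.52 and 3.01 with SSRP1 siRNA, against 3.06 and 3.04 with control siRNA.

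NOTCH1, the receptor, had log2 signals of 7.45 and 7.20 with SSRP1 siRNA, against 6.02 and 5.97 with control siRNA. The groups did not overlap, and the lowest SSRP1 siRNA array lay 1.18 above the highest control array. The means were 7.32 ± 0.18 with SSRP1 siRNA and 5.99 ± 0.03 with control siRNA (SD, n = 2 each), a log2 change of 1.33 ± 0.12 (SE) with a 95% interval from 1.03 to 1.63. By size of rise NOTCH1 ranked 23 among the 14812 genes. It was 1 of the 14 genes (0.0945%) with a limma adjusted p under 0.05, called past the test below, and the other 4 members were not among them. Groups that do not overlap were found for 5 of 5 members and for 44.3% of all genes. Since the members were chosen on this contrast, neither count is a test of them and nothing is read from either. NOTCH1 was not among the called genes with robust variances, with the replicate numbers as a block or over all probe sets, while a variance trend added HEY1 and DLL3. Without any 1 of the arrays 0 genes passed in limma, where 1200 to 1672 genes had an unadjusted p under 0.05. A bulk array cannot tell more cells with NOTCH1 RNA from more of that RNA per cell, and this holds for every gene below.

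The other 3 Notch receptors had values below those of the control arrays. NOTCH3, a receptor known from smooth muscle and from mesenchymal-type neuroblastoma cells, had signals of 4.57 and 4.67 with SSRP1 siRNA, against 4.89 and 5.05 with control siRNA. NOTCH2 had signals of 2.86 and 3.15 with SSRP1 siRNA, against 3.63 and 3.24 with control siRNA. NOTCH4, the endothelial receptor, had signals of 3.97 and 4.10 with SSRP1 siRNA, against 4.12 and 4.43 with control siRNA. In all 3 genes both SSRP1 siRNA arrays lay below both control arrays, as in 22.5% of all genes. The log2 changes were -0.35 ± 0.11, -0.43 ± 0.17 and -0.23 ± 0.14 (SE) for NOTCH3, NOTCH2 and NOTCH4, and none passed the limma test, with adjusted p of 0.321, 0.398 and 0.554. NOTCH2 shares long stretches of near-identical sequence with the NOTCH2NL genes, so its signal may hold theirs too.

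**Figure D1:**
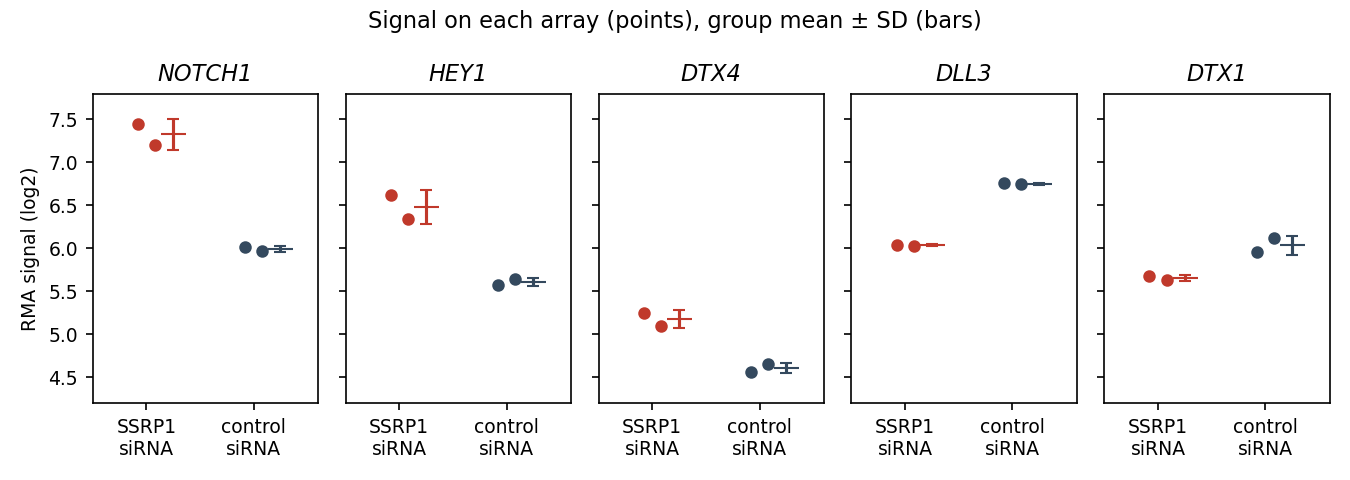
Log2 RMA signal (vertical axis) of the 5 genes on each array, with SSRP1 siRNA in red on the left and control siRNA in dark blue on the right of each panel; points are arrays and bars give the mean ± SD (n = 2 each). NOTCH1, HEY1 and DTX4 lie higher and DLL3 and DTX1 lower on both SSRP1 siRNA arrays, with no overlap between groups in any panel. Heights are not comparable between panels, since probe sets differ in brightness.

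HEY1, a repressor of the basic helix-loop-helix family that the Notch intracellular domain switches on directly, had log2 signals of 6.62 and 6.34 with SSRP1 siRNA, against 5.58 and 5.64 with control siRNA. Both SSRP1 siRNA arrays lay above both control arrays, by at least 0.69. The log2 change was 0.87 ± 0.13 (SE), with a 95% interval from 0.55 to 1.19 and rank 77 among the rises.

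The relatives of HEY1 showed no common direction. Of the other 8 measured genes of the HES and HEY list, 3 lay above 0 and 5 below, with a median log2 change of -0.05 beside -0.0072 over all genes. HES7, the oscillator of the embryonic somite clock, had a change of -0.42 ± 0.11 (SE), and HES5, a Notch target of neural progenitors, one of -0.36 ± 0.12. Their limma adjusted p were 0.262 and 0.327, so neither passed the test. For each of them both SSRP1 siRNA arrays lay below both control arrays, as in 22.5% of all genes. HEYL, the closest in direction to HEY1, had a change of 0.18 ± 0.10, and HEY2 one of -0.10 ± 0.11. HES4 and HES6 had changes of -0.0015 ± 0.11 and 0.08 ± 0.12, HES2 and HES3 of 0.05 ± 0.11 and -0.10 ± 0.17, and HES1 is not analysed here. NRARP, a feedback inhibitor that Notch induces in many tissues, had signals of 4.69 and 4.56 with SSRP1 siRNA, against 4.55 and 4.68 with control siRNA, so its groups overlapped. Its log2 change of 0.01 had a 95% interval from -0.26 to 0.28.

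DLL3 was the member with the tightest replicates. This divergent ligand, made by neuroendocrine cells, binds Notch inside the same cell and does not activate receptors on neighbours. Its log2 signals were 6.04 and 6.03 with SSRP1 siRNA, against 6.76 and 6.74 with control siRNA. The means were 6.04 ± 0.01 with SSRP1 siRNA and 6.75 ± 0.01 with control siRNA (SD, n = 2 each), so the groups lay far apart compared with their spread. The log2 change was -0.72 ± 0.10 (SE), with a 95% interval from -0.96 to -0.48, and DLL3 ranked 60 by size of fall. Because limma draws each gene's variance toward that of all genes, this SE is larger than the replicates of DLL3 alone would give.

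The activating ligands did not pass the test. DLL1, DLL4, JAG1 and JAG2, which trigger Notch on the neighbouring cell, had log2 changes of 0.06, -0.05, -0.14 and -0.11, with SE of 0.12 each, and their groups overlapped. DLK1, a non-canonical ligand of immature neuroendocrine cells, had high signals of 10.8 and 10.7 with SSRP1 siRNA, against 11.0 and 10.9 with control siRNA. Over the 8 ligands 1 lay above 0 (12.5%, beside 48.3% of all genes) and 7 below. Their median was -0.12 (-0.0072 over all genes), and none passed the test.

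Ligands need ubiquitin ligases of the Mindbomb and Neuralized families, which drive the endocytosis that pulls the receptor open. MIB1, the main such ligase in mammals, had log2 signals of 6.55 and 6.53 with SSRP1 siRNA, against 7.12 and 6.98 with control siRNA. NEURL1B had signals of 5.28 and 5.11 with SSRP1 siRNA, against 5.64 and 5.70 with control siRNA, and NEURL1 signals of 5.96 and 6.00 with SSRP1 siRNA, against 6.24 and 6.34 with control siRNA. In these 3 genes both SSRP1 siRNA arrays lay below both control arrays, as in 22.5% of all genes. In MIB2 the groups overlapped and the log2 change was -0.0066 ± 0.11. The changes of MIB1, NEURL1B and NEURL1 were -0.51 ± 0.11, -0.48 ± 0.11 and -0.31 ± 0.10 (SE), with unadjusted p of 0.003, 0.0054 and 0.025. Genes with an unadjusted p under 0.05 and a lower value made up 6.03% of all genes. None of the 4 ligases passed the limma test over all genes, where their adjusted p were 0.184 or more.

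The Deltex proteins are ubiquitin ligases, named after the fly gene deltex, and DTX1 and DTX4 act on the Notch receptor. DTX4 had log2 signals of 5.25 and 5.10 with SSRP1 siRNA, against 4.57 and 4.65 with control siRNA. DTX1, which in lymphocytes is itself switched on by Notch, had signals of 5.68 and 5.63 with SSRP1 siRNA, against 5.96 and 6.11 with control siRNA. The pair thus lay on opposite sides of 0, each with groups that did not overlap. The log2 change of DTX4 was 0.57 ± 0.11 (SE, 95% interval 0.30 to 0.83), and that of DTX1 was -0.38 ± 0.11 (SE, 95% interval -0.65 to -0.11). Of the 5 members, DTX1 had the smallest change and ranked 512 among the falls, while DTX4 ranked 246 among the rises.

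The remaining Deltex genes had smaller changes. DTX2 had a log2 change of -0.24 ± 0.14 (SE), DTX3 one of -0.09 ± 0.12 and DTX3L, a partner of PARP9 in DNA damage and interferon responses, one of 0.15 ± 0.22. None passed the test, and the groups of DTX3 and DTX3L overlapped. The wide SE of DTX3L came with control signals of 6.54 and 5.87.

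All 5 members had the higher signal on SSRP1 siRNA replicate 1, where DLL3 and DTX1 differed from replicate 2 by the least. Without replicate 1 the log2 changes of NOTCH1, HEY1 and DTX4 were 1.20, 0.73 and 0.49, and without replicate 2 they were 1.46, 1.01 and 0.64. All 5 members had a difference between groups larger than the difference between replicates of either group. Since they were chosen on this contrast, that count is no test of them and nothing is read from it.

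The starts of the genes were looked at for letters that Notch factors bind, since NOTCH1 and DTX4 were both higher with SSRP1 siRNA. Of the 5 members, NOTCH1 and DTX4 were found in RefSeq's promoter sequences (GRCh38.p14), DTX4 with 2 starts, and HEY1, DLL3 and DTX1 were not matched. The 250 bases before each start are shown in the direction of the gene, 5′ to 3′, with every CG in capitals. NOTCH1 lies on the minus strand and its window is chr9:136546049-136546298. DTX4 lies on the plus strand, with windows chr11:59171180-59171429 for its first start and chr11:59171882-59172131 for its second.
NOTCH1: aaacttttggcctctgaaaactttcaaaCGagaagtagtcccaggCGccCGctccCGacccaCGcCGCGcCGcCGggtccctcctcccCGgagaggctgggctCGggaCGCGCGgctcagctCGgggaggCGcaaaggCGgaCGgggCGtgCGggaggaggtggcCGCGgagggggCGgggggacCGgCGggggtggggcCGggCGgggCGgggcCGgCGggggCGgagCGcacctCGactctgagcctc
DTX4, first start: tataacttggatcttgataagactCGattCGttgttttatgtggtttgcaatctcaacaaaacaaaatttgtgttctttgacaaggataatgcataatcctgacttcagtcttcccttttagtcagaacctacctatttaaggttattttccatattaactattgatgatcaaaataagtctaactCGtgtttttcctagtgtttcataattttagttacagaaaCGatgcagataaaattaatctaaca
DTX4, second start: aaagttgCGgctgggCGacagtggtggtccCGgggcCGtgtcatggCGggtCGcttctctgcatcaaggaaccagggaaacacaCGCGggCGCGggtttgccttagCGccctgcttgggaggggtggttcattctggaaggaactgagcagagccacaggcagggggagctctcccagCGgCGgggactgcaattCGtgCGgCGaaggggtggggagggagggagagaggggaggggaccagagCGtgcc

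The NOTCH1 window was rich in G and C (76.0%) with 33 CG, above 91.9% of all 35116 windows in G and C content. The second DTX4 start had 66.4% and 17 CG, and the first 30.4% and 4 CG, against medians of 58.0% and 11 over all windows. On either strand none of the 3 windows held TGGGAA, the core that RBPJ binds, which was found in 20.8% of all windows. They also held neither CACGTG (6.34% of windows), bound by HES and HEY proteins, nor CAGCTG (14.0%), an E-box of proneural factors. Only these 3 motifs were searched, so other sites of the same factors in the windows were not looked for. These are matches of letters in a short window and say nothing of binding elsewhere.

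**Figure D2:**
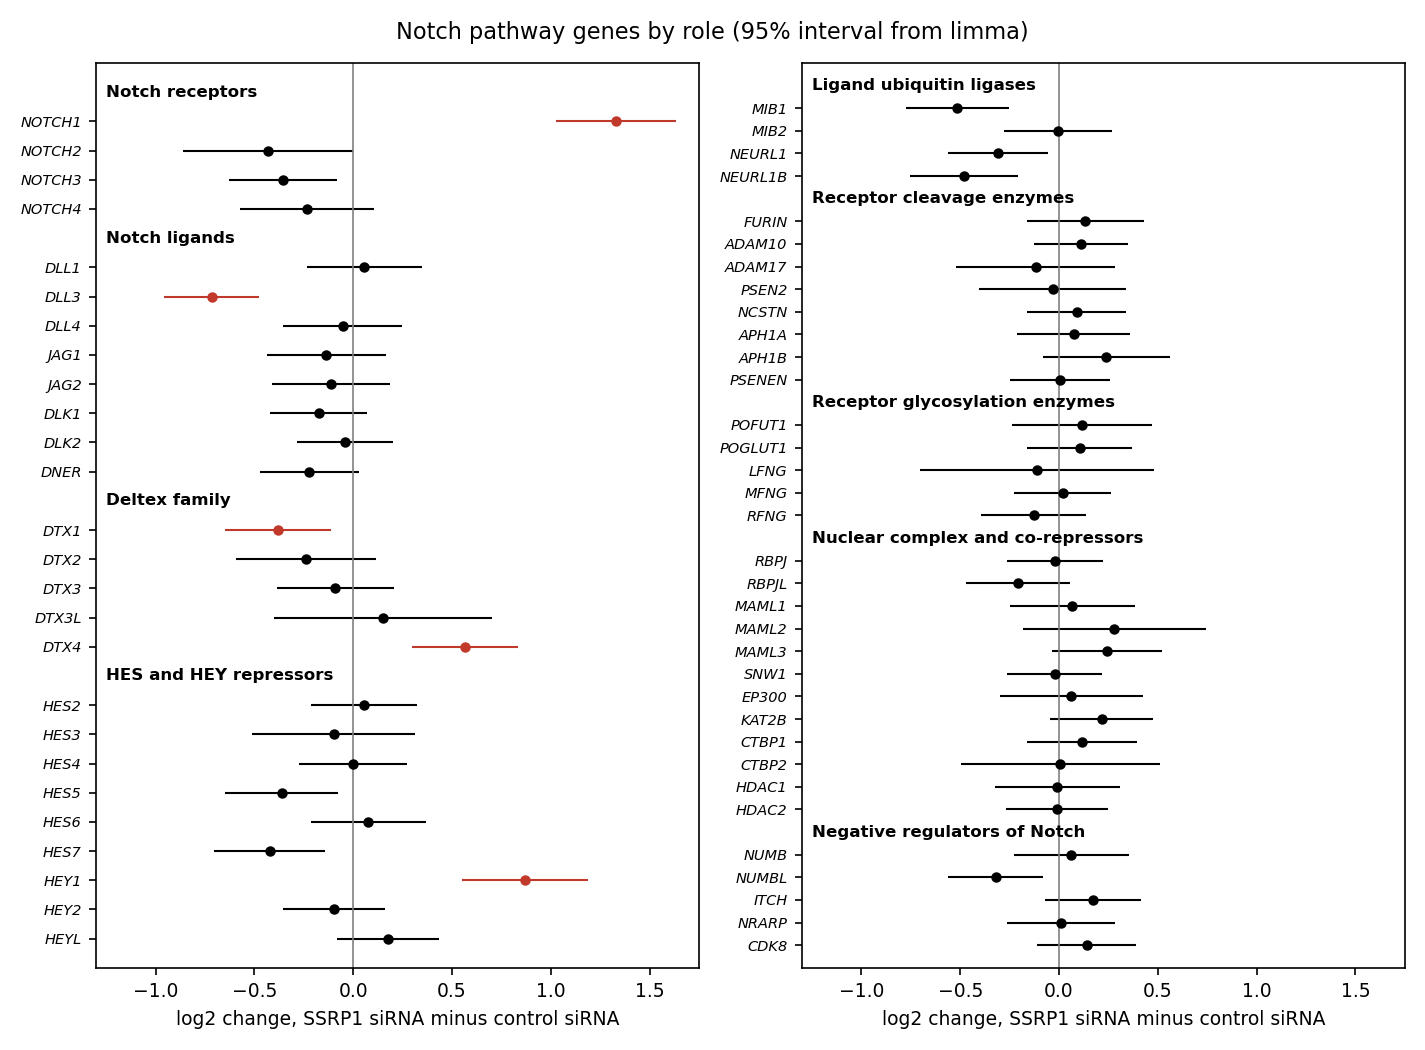
Log2 change, SSRP1 siRNA minus control siRNA (horizontal axis), of the 60 measured Notch pathway genes in 9 lists by role; points are limma estimates from 2 arrays per group and lines their 95% intervals, with the 5 members in red. NOTCH1 (1.33), HEY1 (0.87) and DTX4 (0.57) lie farthest to the right and DLL3 (-0.72) farthest to the left.

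The shared machinery of the pathway showed small changes in both directions. Among the proteases that cut the receptor, ADAM10 and NCSTN, the gamma-secretase subunit nicastrin, had log2 changes of 0.11 and 0.09, and the largest was that of APH1B (0.24 ± 0.13, SE). RBPJ had signals of 5.16 and 5.19 with SSRP1 siRNA, against 5.19 and 5.21 with control siRNA, and a 95% interval of its change from -0.26 to 0.22. The co-activators MAML3 and MAML2 had changes of 0.24 ± 0.11 and 0.28 ± 0.19, and KAT2B, of the same list, one of 0.22 ± 0.10. RFNG, a Fringe enzyme that adds sugars to the receptor, had a change of -0.13 ± 0.11, and the smallest p of the glycosylation list. POGLUT1, with the next smallest p, had a change of 0.11 ± 0.11. NUMBL, a relative of the Notch antagonist NUMB, had a change of -0.32 ± 0.10 (adjusted p = 0.305), and NUMB one of 0.06 ± 0.12. ITCH, of the same list of negative regulators, had a change of 0.17 ± 0.10.

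Over the 9 lists 60 of 70 genes were measured, 28 above 0 and 32 below, with a median log2 change of -0.0072, equal at this rounding to that of all genes. Without the 5 members the other 55 had changes from -0.51 to 0.28, and none passed the limma test (smallest adjusted p 0.184, MIB1). At an unadjusted p under 0.05, 0 of the 55 were higher and 7 lower, that is 0% and 12.7%, beside 6.56% and 6.03% of all genes. Groups did not overlap for 8 higher (14.5%) and 16 lower (29.1%), beside 21.8% and 22.5% of all genes.

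The genes whose pattern over the 4 arrays lay nearest to NOTCH1 were found by root mean square distance, after each gene was centred on its control arrays. CXCR4, the receptor of the chemokine CXCL12, was nearest, at a distance of 0.035 on the log2 scale. Its signals were 6.78 and 6.53 with SSRP1 siRNA, against 5.28 and 5.31 with control siRNA. The search picks genes by their likeness to the member on these same 4 arrays. A similar rise and a similar gap between replicates therefore follow from the search, and nothing is read from them. CRISPLD2, a secreted glycoprotein, TMEM150C, CREG1 and FAT4, a giant protocadherin, followed at 0.11 to 0.14. Nearest to HEY1 were MAP3K3, a kinase of the MEKK family, and EGR1, an immediate early zinc finger factor, at 0.077 and 0.081. For DLL3 they were OTOP1 and RPL22L1, for DTX1 PBX4 and ZSCAN18, and for DTX4 RFPL3 and FNBP1L, at 0.015 to 0.037. RFPL3 was dim and may reflect background, with signals of 1.57 and 1.47 with SSRP1 siRNA, against 0.96 and 1.04 with control siRNA. Among the members themselves HEY1 and DTX4 were the closest pair, at 0.22.

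**Figure D3:**
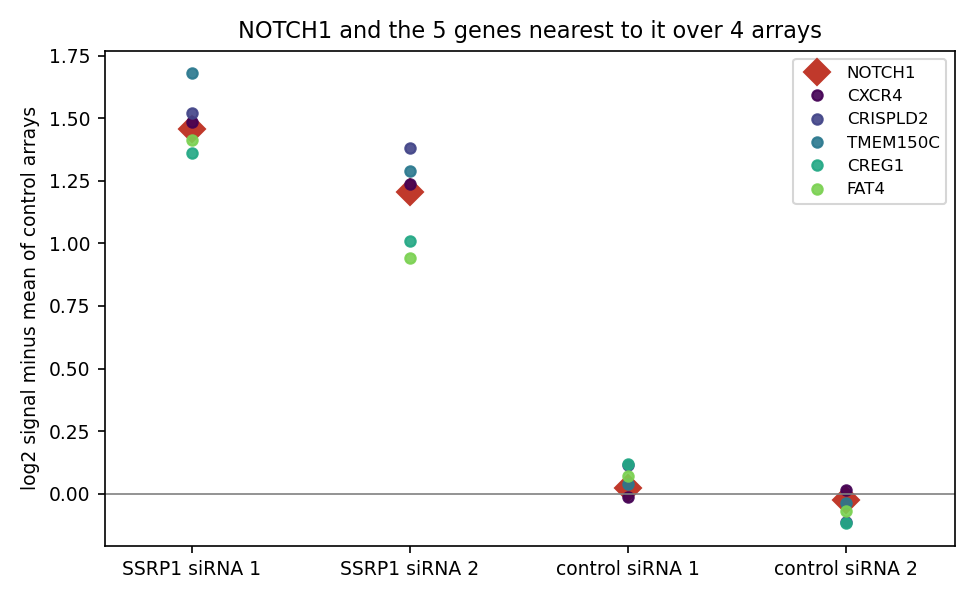
Log2 signal minus the gene's mean over the control arrays (vertical axis) on each of the 4 arrays, for NOTCH1 (red diamond) and the 5 genes nearest to it (circles). CXCR4 (6.78 and 6.53 with SSRP1 siRNA before centring) follows NOTCH1 most closely, and all 6 genes lie higher on SSRP1 siRNA replicate 1 than on replicate 2. The 5 genes were chosen for their likeness to NOTCH1 on these arrays, so this shared order is no separate result.

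Genes that Notch is known to work with in arteries were examined beside the members, because NOTCH1 and HEY1 also mark arterial endothelium; this list was drawn up with the values of CXCR4, FLI1 and ERG known. Of its other 6 measured genes 4 lay above 0, beside 48.3% of all genes, with a median log2 change of 0.06. CXCR4 had a change of 1.36 ± 0.12 (SE). SOX7, an endothelial SOX factor, had signals of 9.16 and 9.27 with SSRP1 siRNA, against 8.36 and 8.07 with control siRNA. The ETS factors FLI1 and ERG had log2 changes of 1.35 ± 0.28 and 0.68 ± 0.16, and the semaphorin co-receptor NRP1 one of 0.60 ± 0.16, none of them past the test (adjusted p 0.184 to 0.257, and 0.103 for SOX7). EFNB2, an arterial ephrin often induced by Notch, had a change of -0.11 ± 0.10, UNC5B one of -0.09 ± 0.12, and SOX17 and SOX18 of 0.09 ± 0.13 and 0.03 ± 0.12. Of 7 endothelial markers 4 were measured and their mean signal was 4.40 and 4.13 with SSRP1 siRNA, against 3.97 and 4.08 with control siRNA. Their median log2 change was 0.02, and ESAM had the largest change of the 4 (1.08 ± 0.30, SE). CLDN5 had a change of -0.14 ± 0.21. VWF and KDR, 2 of the defining endothelial genes, were dim in both groups, with changes of -0.06 ± 0.10 and 0.09 ± 0.12, while ESAM had signals of 6.94 and 5.97 with SSRP1 siRNA, against 5.41 and 5.33 with control siRNA. The part of other cells in these values was not tested.

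**Figure D4:**
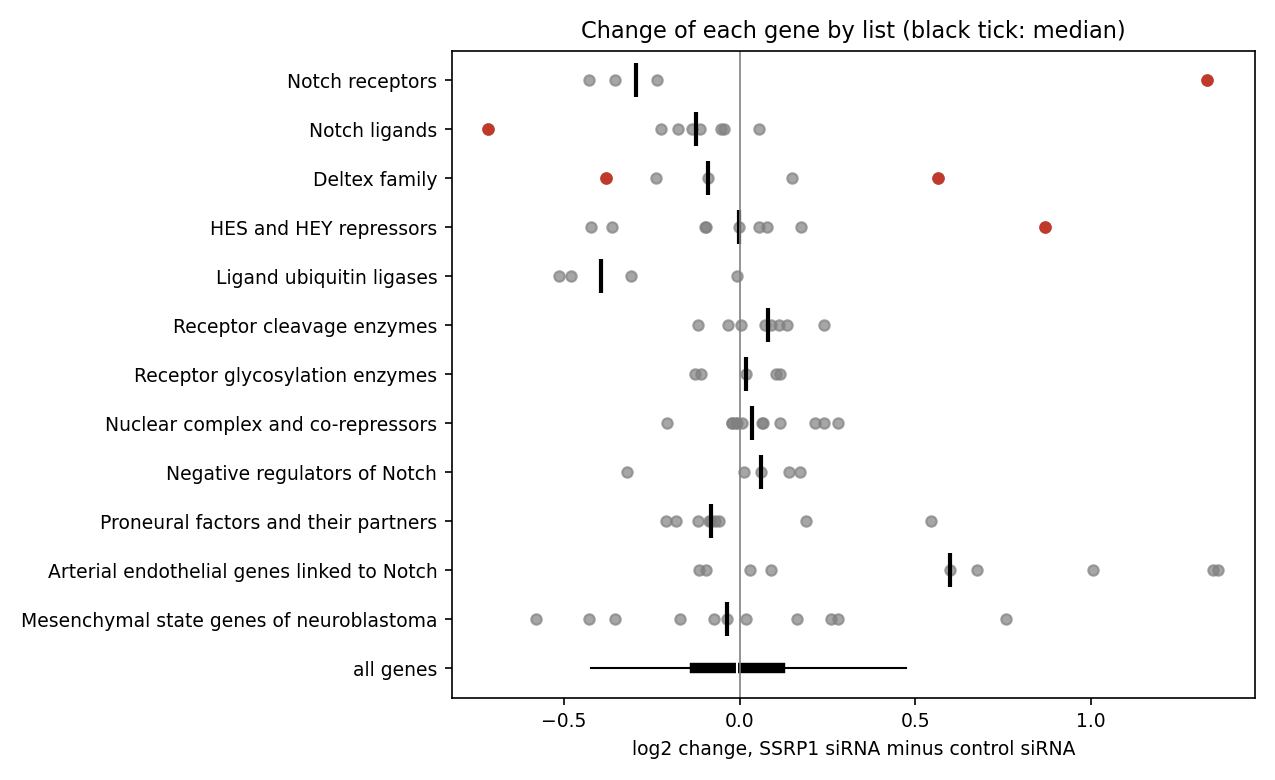
Log2 change, SSRP1 siRNA minus control siRNA (horizontal axis), of every measured gene of 12 lists (grey points, the 5 members in red, black tick at the list median); in the bottom row the thick bar spans the 25th to 75th and the thin line the central 95% of all genes. The arterial list, drawn up with the values of CXCR4, FLI1 and ERG known, has a median of 0.60 with them and 0.06 without them, and the ligand ubiquitin ligases have one of -0.39.

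Proneural factors, which HES and HEY proteins repress, were measured for 9 of 15 listed genes. None passed the test. INSM1, a zinc finger factor of neuroendocrine cells, had signals of 6.97 and 6.95 with SSRP1 siRNA, against 6.52 and 6.31 with control siRNA (log2 change 0.54 ± 0.12, SE, adjusted p = 0.195). TCF12, an E protein that pairs with proneural factors, had a change of -0.21 ± 0.10. The median of the list was -0.08 (-0.0072 over all genes). It had 2 genes above 0 (22.2%, beside 48.3% of all genes) and 7 below.

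Notch is also known to move neuroblastoma cells toward a mesenchymal state, so genes of that state were set beside the members. VIM, the intermediate filament vimentin, had signals of 6.98 and 6.80 with SSRP1 siRNA, against 6.29 and 5.98 with control siRNA. SNAI1, a repressor of epithelial genes, had signals of 5.46 and 5.19 with SSRP1 siRNA, against 5.91 and 5.89 with control siRNA. The 2 genes thus lay on opposite sides, and PRRX1, FN1 and CD44 had changes between -0.07 and 0.02. Over the 11 measured genes 5 lay above 0 and 6 below, with a median of -0.03, and none passed the test. Of the 8 sympathetic neuroblast markers 7 lay below 0 and 12.5% above, beside 48.3% above over all genes, and none passed. DBH, the enzyme that makes noradrenaline, had a change of -0.77 ± 0.11 (limma adjusted p = 0.111). HAND2, TH, PHOX2A and STMN2 had changes of -0.38 ± 0.10, -0.34 ± 0.11, -0.28 ± 0.12 and -0.18 ± 0.10. ISL1 and CHGB had changes of -0.06 ± 0.15 and -0.01 ± 0.11, and CHGA went the other way, at 0.34 ± 0.11. At an unadjusted limma p under 0.05, 37.5% of the 8 were lower and 12.5% higher, beside 6.03% and 6.56% of all genes. Groups did not overlap for 62.5% lower and 12.5% higher, beside 22.5% and 21.8% of all genes. Of the other marker genes LUM (fibroblasts) and S100B (glia) had changes of 1.20 ± 0.25 and 0.47 ± 0.12, while DCN, GFAP and SOX10 had changes between -0.04 and 0.04. Their part in the members' values was not tested.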

How the data were processed

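RNA of 4 samples, 2 with SSRP1 siRNA and 2 with control siRNA, was read on 1 array each. The deposited table holds log2 values per probe set, and the submitters' processing notes name RMA as the method the authors used. Its software version is not given in the sources used here. The log2 scale was inferred from the range of the values (0.502 to 12.8). RMA as usually run equalises the arrays, so a shift of all transcripts would not show, and the number of arrays limits the precision. No detection values were used, and dim values may reflect background.

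Of 46255 probe sets 15835 had 1 gene symbol in the platform annotation, 0 had several and 30420 were unnamed here. All 15835 gene IDs matched the RefSeq table of GRCh38.p14. Where a gene had more than 1 probe set (651 genes), the brightest on average was taken. Groups were taken from the sample titles. The comparison was made with limma (version 3.58.1, R 4.3.3; lmFit and eBayes, no trend, no block) over all 14812 genes with Benjamini-Hochberg adjustment, 2 residual and 3.79 prior degrees of freedom, two-sided, and was tested on simulated data. The 95% intervals use its SE.

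The members and lists were chosen with earlier results of these data known. Named were the 5 members, SSRP1, every measured gene of the receptor, ligand, Deltex and HES and HEY lists where it helped, genes past the test or the 2 with the smallest p from each other list, and the nearest genes (5 for NOTCH1, 2 for each other member). Any gene named beyond these was picked with its values already known. The titles share replicate numbers, and the correlation over genes of same-numbered deviations from the group means was 0.11. With 2 arrays per group the second pair only repeats the first, so this cannot settle whether the samples were paired. The main comparison left them unpaired, and a fit with the replicate numbers as a block is given below.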

Additional observations from a re-analysis of the deposited data

How the results depend on the processing

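The log2 changes of NOTCH1, HEY1, DTX4, DLL3 and DTX1 kept their direction under every alternative run, and without any 1 array ran from 1.20 to 1.46, 0.73 to 1.01, 0.49 to 0.64, -0.72 to -0.71 and -0.46 to -0.30. Quantile normalization gave DLL3 -0.73, outside its narrow replicate spread. The 14 genes past the test became 215 with a variance trend, 179 among genes at or above the median level, 41 at an adjusted p under 0.1 and 25 after quantile normalization, against 9 with robust variances. Over all probe sets there were 0 (3854 at an unadjusted p under 0.05), and without any 1 array 0 (1200 to 1672 at an unadjusted p under 0.05, limma with 1 residual degree of freedom). Of the 60 pathway genes 1 (NOTCH1) passed. With a variance trend 4 of 60 passed (NOTCH1, HEY1, DLL3 and MIB1), beside 215 of all 14812 genes. Among genes at or above the median level 5 of 43 passed (these and DTX4), beside 179 of 7406. Apart from MIB1 these are members chosen on this contrast, so the counts are no test of them. No pathway gene (0) passed over all probe sets, with robust variances or without any 1 array, where in the last case 8 to 13 pathway genes had an unadjusted p under 0.05 and the smallest limma adjusted p was 0.241. With the replicate block 6 genes passed in limma, 5 of them among the 14, and 0 pathway genes (12 at an unadjusted p under 0.05). The median change of the pathway was 0.0038 after median centring and between -0.023 and -0.011 without any 1 array. That of all genes was 0.0038 after median centring and between -0.010 and 0.00098 without any 1 array. The SSRP1 change was not past the test with the replicate block, with robust variances, over all probe sets or without any 1 array (-2.17 to -1.72). The cause of these shifts was not tested. Some of the runs also differ in the number of features or arrays fitted. With 2 arrays per group, changes near the size of the median SE (0.117) cannot be told from replicate spread.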
